A study of Mus musculus with 4 samples.

Results

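The STAT factors and SOCS inhibitors described here are 9 genes, Stat2, Stat3, Stat4, Stat5a, Stat6, Socs1, Socs2, Socs3 and Cish. They were taken as every probe set whose annotation gives exactly 1 of these gene symbols, which yielded 15 of 45141 probe sets, 8 for the STAT factors and 7 for the SOCS family (9 of 17097 genes). The rule uses symbols and no measured value, although the genes were picked with earlier results of these data known. The study hybridized RNA of splenic DC to 4 arrays, 1 for WT DC and 1 for MARCO-/- DC under each of PBS and LPS. WT mice were C57BL/6 (written C56BL/6 in the labels), and MARCO-/- mice lack the scavenger receptor MARCO in all cells on the same labelled background. Mice of both genotypes were 8 to 12 weeks old, DC were enriched on CD11c from pools of 5 to 6 animals, and each preparation was kept overnight either in PBS or with LPS at 100 ng/ml, which signals through TLR4. There were no replicates, so no test could be made and no error can be attached to any ratio, and a probe set was called at the 2-fold threshold of the study's methods.

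STAT proteins are transcription factors that wait in the cytoplasm. A cytokine binds its receptor, the Janus kinases (JAK) bound to the receptor phosphorylate it and then the STAT, and STAT dimers move to the nucleus and switch on target genes. Among these targets are Cish, Socs1, Socs2 and Socs3, whose proteins bind the receptor or the kinase and shut the signal down, so the family is a classical negative feedback loop. In DC the loop sets how strongly cells respond to interferons, IL-6, IL-10, GM-CSF and IL-4, and LPS reaches it largely through cytokines that the cells release.

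Values are RMA intensities on a linear scale, and the median over all probe sets and arrays was 4.87, so values near it are at the background of the array. All 15 probe sets exceeded it on at least 1 array, and no filter on low values was applied. The DC preparations carried the labelled markers. H2-Aa, a chain of MHC class II, went from 4999.8 with PBS to 3013 with LPS in WT and from 5231 to 2035 in MARCO-/-. Itgax, which encodes CD11c, fell from 548 to 12.9 with LPS in WT and from 621 to 16.4 in MARCO-/-. The summed intensity of 8 DC markers was 12040 with PBS and 5977 with LPS in WT, and 12654 and 5327 in MARCO-/-. With LPS 1 of them was at least 2-fold higher and 3 lower in WT, and 2 were higher and 4 lower in MARCO-/-. Markers of other cells were present too. The summed intensity of 6 NK cell markers was 835 with PBS and 348 with LPS in WT, and 545 and 182 in MARCO-/-. That of 4 T cell markers lay between 108 and 136 on all arrays, that of 5 B cell markers between 1125 and 1944 and that of 3 erythroid markers between 3985 and 6829. The sum of 8 macrophage markers was 1130.2 with PBS and 378 with LPS in WT, and 1976 and 554 in MARCO-/-. For 5 neutrophil markers the sums were 368 and 43.5 in WT, and 291 and 24.3 in MARCO-/-, and for 3 plasma cell markers 933 and 677, and 1902 and 981. The sum of 6 fibroblast markers was 1067 with LPS in WT and 347 with PBS in MARCO-/- but 21.5 and 28.7 on the other arrays. Col3a1 made up most of the 2 high sums, with 959 and 315, while Col1a2 and Pdgfra stayed at the background on all arrays. The sums of 5 skeletal muscle markers followed the same arrays with 419.9 and 159.8 against 23.7 and 22.9. In these bulk samples a smaller number of cells of a type and less RNA per cell cannot be told apart, and the part of these markers in the results below was not tested.

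After LPS, 12 of the 15 had at least 2-fold higher values in WT and 12 in MARCO-/-, and none was 2-fold lower in either genotype. Of all 45037 probe sets without the array's own controls, 4.59% were at least 2-fold higher and 7.97% lower in WT, and 5.14% were higher and 4.98% lower in MARCO-/-. The median log2 ratio of the 15 was 1.96 in WT and 1.90 in MARCO-/-, beside 0.03 and 0.00 over all probe sets. The same probe sets passed in both genotypes. They stand for 7 genes, since Stat6 and Socs3 stayed under 2-fold, as did the dimmer of the probe sets of Stat3.

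**Figure D1:**
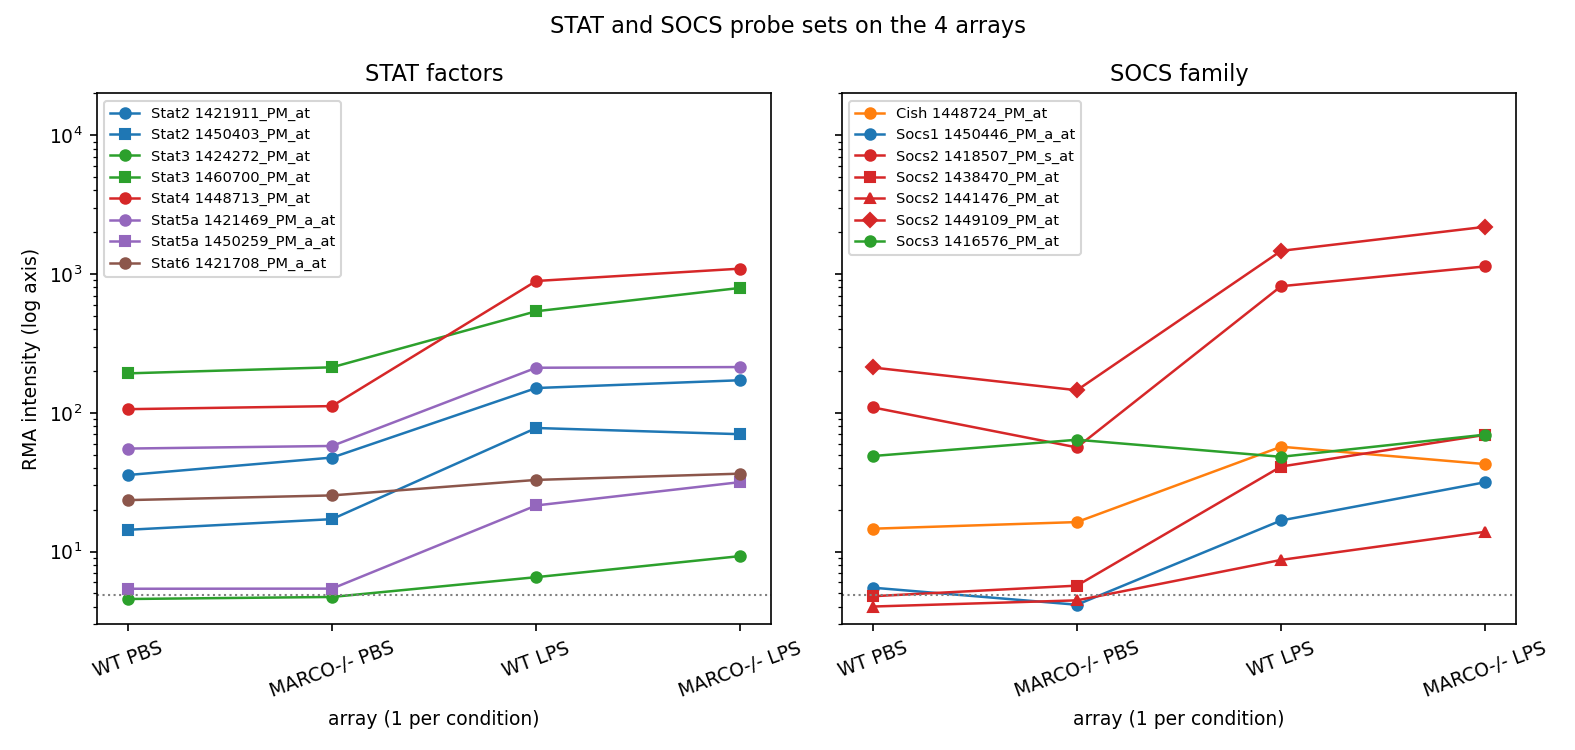
RMA intensity (log axis) of the 8 STAT probe sets, left, and the 7 SOCS family probe sets, right, by array; lines join the points of a probe set and the dotted line marks the median of all intensities, 4.87. Stat4 and Socs2, apart from the dimmest Socs2 probe set, show the steepest step from the PBS arrays to the LPS arrays, while Socs3 stays between 48.2 and 69.6.

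Stat4, which carries the signal of IL-12 and, in some settings, of type I interferon, had the largest ratio among the STAT factors. Its only probe set had an intensity of 106 on the WT PBS array, 112 on the MARCO-/- PBS array, 891 with LPS in WT and 1094 with LPS in MARCO-/-. Both LPS arrays thus stood far above both PBS arrays, by 8.39-fold in WT and 9.79-fold in MARCO-/-. The ratio ranked 162 of 45037 in WT and 123 in MARCO-/-. T cells and NK cells also express Stat4. The median log2 ratio with LPS was -0.44 in WT and -0.43 in MARCO-/- over 4 T cell markers, with Cd3d at 0.32 and 0.30, and -1.68 and -1.64 over 6 NK cell markers, with Gzmb at 1.02 and 0.36. The part of these cells in the Stat4 values was not tested.

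Stat2 encodes a subunit of ISGF3, the complex that type I interferon activates. Its brighter probe set had 35.6 (WT PBS), 47.6 (MARCO-/- PBS), 151 (WT LPS) and 172 (MARCO-/- LPS). This is 4.24-fold higher with LPS in WT and 3.61-fold in MARCO-/-. The other probe set went from 14.3 to 77.7 in WT and from 17.1 to 70.1 in MARCO-/-, or 5.42-fold and 4.09-fold. For Irf9, another subunit of the complex, the values were 106 and 273 in WT, which is 2.57-fold, and 154 and 230.4 in MARCO-/-, which is 1.49-fold and under the threshold.

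Stat3 transmits IL-6 and IL-10 signals. In its brighter probe set the intensity was 192 with PBS and 539 with LPS in WT (2.80-fold), and 213 and 795 in MARCO-/- (3.74-fold). The dimmer probe set lay near the background at 4.55 and 6.54 in WT and 4.71 and 9.28 in MARCO-/-, and its ratio in MARCO-/-, 1.97-fold, passed the threshold after centring of the arrays (2.05-fold) or cyclic loess (2.01-fold).

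Stat5a relays GM-CSF, the growth factor of DC. Its brighter probe set had 55.2 and 57.7 with PBS in WT and MARCO-/-, and 211 and 214 with LPS. The LPS to PBS ratios, 3.82-fold and 3.70-fold, were the closest to each other of the called STAT probe sets. The second probe set started near the background, at 5.39 and 5.41, and reached 21.5 in WT and 31.7 in MARCO-/-. Its ratios, 3.98-fold and 5.86-fold, were the furthest apart of all STAT probe sets, so the probe sets of Stat5a differed in this respect. Stat5a and Stat5b are near-identical paralogs, and cross-hybridization between them was not tested. The brightest Stat5b probe set had 68.6 (WT PBS), 69.2 (MARCO-/- PBS), 68.6 (WT LPS) and 99.0 (MARCO-/- LPS).

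Stat6, the factor of IL-4 and IL-13, had the smallest LPS ratio of the STAT factors when each is read by its brightest probe set. Its probe set had 23.5 (WT PBS), 25.4 (MARCO-/- PBS), 32.8 (WT LPS) and 36.4 (MARCO-/- LPS). Both LPS arrays were above both PBS arrays, by 1.40-fold in WT and 1.44-fold in MARCO-/-, under the threshold.

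Socs2 encodes an inhibitor that STAT5 induces and that restrains growth hormone signalling in other tissues. By brightest probe set it had the highest ratio of the 9 genes in MARCO-/-, while in WT that of Stat4 was higher. The brightest of its 4 probe sets had 212 (WT PBS), 145 (MARCO-/- PBS), 1469 (WT LPS) and 2190.0 (MARCO-/- LPS), so that MARCO-/- was the lower genotype with PBS and the higher one with LPS. The LPS ratio was 6.93-fold in WT and 15.1-fold in MARCO-/-. The next brightest probe set showed the same order, with 109, 56.3, 817 and 1135 and ratios of 7.47-fold and 20.2-fold, the latter ranking 43 of 45037. In the other two, PBS values were at the background (4.77 and 5.68, and 4.02 and 4.45), and LPS brought them to 41.0 and 69.4, and to 8.71 and 13.9, in WT and MARCO-/-. All 4 probe sets passed 2-fold in both genotypes.

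Socs1 encodes the strongest inhibitor of interferon signalling in the family, acting on the kinases themselves. Its probe set had 5.49 (WT PBS), 4.14 (MARCO-/- PBS), 16.8 (WT LPS) and 31.6 (MARCO-/- LPS). Values with PBS were at the background, which limits the ratios of 3.05-fold in WT and 7.64-fold in MARCO-/-. The LPS arrays were well apart from the PBS arrays in both genotypes, and the MARCO-/- LPS array was the highest.

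Cish encodes CIS, the founding member, which binds phosphorylated cytokine receptors and competes with STAT5. It had 14.6 (WT PBS), 16.3 (MARCO-/- PBS), 57.0 (WT LPS) and 42.7 (MARCO-/- LPS). The LPS ratio was 3.90-fold in WT and 2.62-fold in MARCO-/-, the reverse of the order seen for Socs1 and Socs2.

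Socs3 encodes the inhibitor of the shared IL-6 receptor chain. It had 48.8 (WT PBS), 63.9 (MARCO-/- PBS), 48.2 (WT LPS) and 69.6 (MARCO-/- LPS), and the PBS and LPS arrays of a genotype differed by 1.01-fold in WT and 1.09-fold in MARCO-/-. It was thus the member with the smallest LPS ratio, on arrays where Il6 itself, a ligand of the receptor it inhibits, rose from 6.33 to 322 in WT and from 7.37 to 491 in MARCO-/-. Both MARCO-/- arrays stood above both WT arrays, by 1.31-fold with PBS and 1.45-fold with LPS, under the threshold and on single arrays. The log2 ratio with LPS, 0.53, became 0.35 after quantile normalization, 0.37 after cyclic loess and 0.61 after centring.

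**Figure D2:**
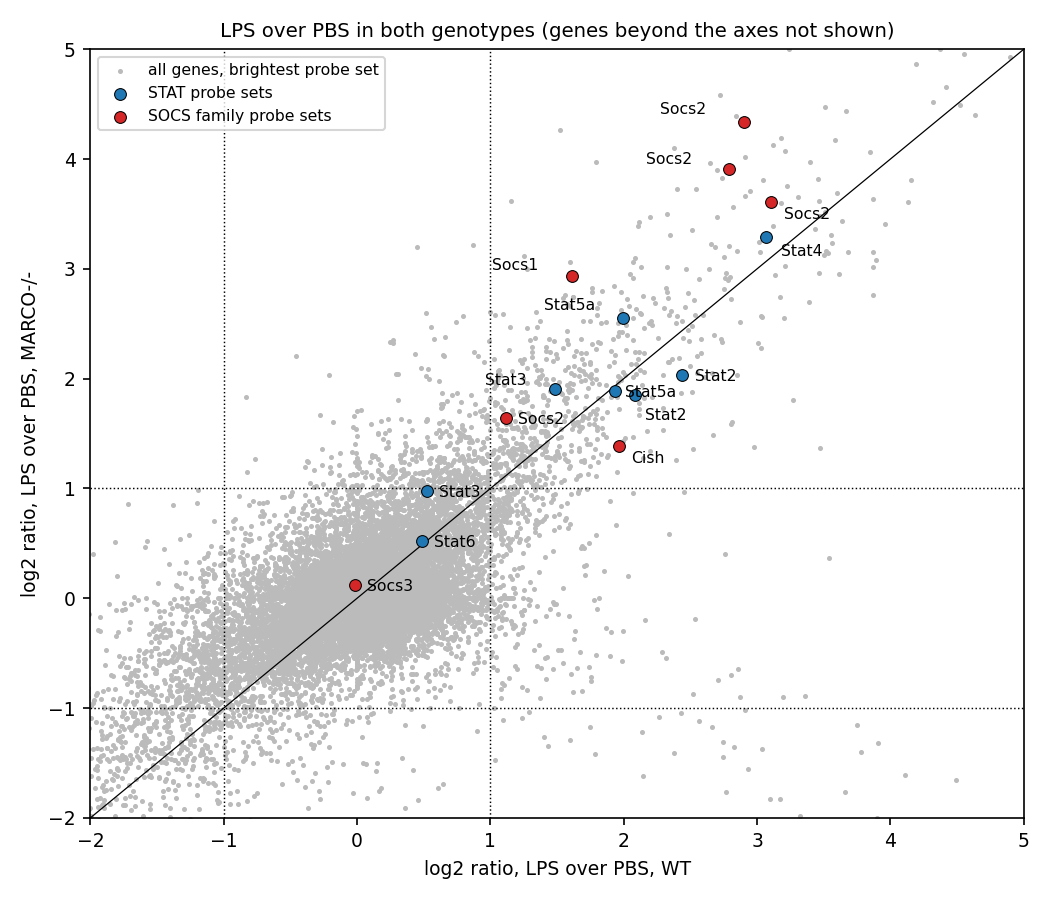
log2 ratio of LPS over PBS in WT (horizontal axis) and MARCO-/- (vertical axis); grey points are all genes, 1 probe set each, coloured points are the 15 STAT and SOCS probe sets, dotted lines mark 2-fold and the solid line equal ratios. Socs1 (1.61 and 2.93) and the brightest Socs2 probe set (2.79 and 3.91) lie above the line, Cish (1.96 and 1.39) below it, and Socs3 (-0.02 and 0.12) at the centre of the grey cloud.

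The promoters of these genes are shown because feedback through STAT binding sites is what links both families. RefSeq entries of build GRCm38.p6, which run from 250 bases before to 50 bases after a start site, were held for 8 of the 9 genes in 10 entries, with none for Socs2. They were searched on both strands for TTCNNNGAA, the GAS element that most STAT dimers bind and that reads the same on either strand, and for TTTCNNTTTC (GAAANNGAAA on the other strand), the core of the ISRE that ISGF3 binds. Of 32851 promoter entries of all genes, 8.30% hold this GAS and 3.44% this ISRE core. The entries with a match follow, 5′ to 3′ on the strand of the gene, with the matches in capitals. They are Cish (chr9:107296409-107296708, plus strand), Socs3 (chr11:117969317-117969616, minus strand), Socs1 (chr16:10785487-10785786, minus strand), Stat2 (chr10:128270248-128270547, plus strand) and the downstream of the pair of Stat4 start sites (chr1:52007990-52008289, plus strand).
Cish: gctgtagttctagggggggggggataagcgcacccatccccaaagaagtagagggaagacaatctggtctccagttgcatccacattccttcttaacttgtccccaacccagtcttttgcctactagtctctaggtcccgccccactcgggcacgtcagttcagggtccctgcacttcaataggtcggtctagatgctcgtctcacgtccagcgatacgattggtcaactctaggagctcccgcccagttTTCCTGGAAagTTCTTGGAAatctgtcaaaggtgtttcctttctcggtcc
Socs3: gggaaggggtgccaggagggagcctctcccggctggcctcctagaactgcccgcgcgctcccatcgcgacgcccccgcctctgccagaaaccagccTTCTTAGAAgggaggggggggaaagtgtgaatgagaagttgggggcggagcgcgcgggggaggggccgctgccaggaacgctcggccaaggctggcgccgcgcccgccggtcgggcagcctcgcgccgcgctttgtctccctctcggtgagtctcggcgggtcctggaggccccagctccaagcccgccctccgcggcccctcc
Socs1: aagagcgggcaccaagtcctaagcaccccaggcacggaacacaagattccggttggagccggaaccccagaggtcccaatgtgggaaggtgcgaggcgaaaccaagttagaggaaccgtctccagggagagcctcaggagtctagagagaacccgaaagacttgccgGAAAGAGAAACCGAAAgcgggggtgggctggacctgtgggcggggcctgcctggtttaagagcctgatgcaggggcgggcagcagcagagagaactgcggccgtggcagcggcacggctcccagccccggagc
Stat2: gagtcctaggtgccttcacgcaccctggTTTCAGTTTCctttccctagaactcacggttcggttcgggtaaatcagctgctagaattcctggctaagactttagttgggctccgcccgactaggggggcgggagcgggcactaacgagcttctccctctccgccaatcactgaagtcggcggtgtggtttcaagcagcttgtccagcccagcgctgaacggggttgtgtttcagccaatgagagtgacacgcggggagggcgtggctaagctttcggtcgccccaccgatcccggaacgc
Stat4: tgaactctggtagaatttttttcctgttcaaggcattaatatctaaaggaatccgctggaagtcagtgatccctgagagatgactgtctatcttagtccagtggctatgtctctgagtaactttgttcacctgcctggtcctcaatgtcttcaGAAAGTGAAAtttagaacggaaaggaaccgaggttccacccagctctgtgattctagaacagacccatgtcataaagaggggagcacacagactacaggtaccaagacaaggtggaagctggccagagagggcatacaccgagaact

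Counting the start site as base 1 and the base before it as -1, the Cish entry holds 2 GAS elements, at bases 1 to 9 and 12 to 20, and the Socs3 entry holds 1 at bases -154 to -146. So a GAS match stood in the promoter of a gene that passed 2-fold with LPS and in that of the gene with the smallest ratio. The Socs1 entry has a pair of ISRE cores that overlap, at bases -83 to -74 and -77 to -68. Stat2 has 1 at bases -222 to -213 and Stat4 has 1 at bases -97 to -88 of the entry shown. The entries of Stat3, Stat5a and Stat6, and the other entry of Stat4, held neither sequence in this window. A spacing of 4 bases in place of 3 between TTC and GAA (TTCNNNNGAA), which STAT6 prefers, stands in 6.95% of all entries and, among the 10, in that of Stat2 alone, at bases -210 to -201. A match describes letters and is not evidence of binding in these cells.

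The response to LPS differed by genotype at 3 of the 15 probe sets, when called by a ratio of LPS ratios of at least 2-fold, all of them larger in MARCO-/- and all in the SOCS family. This difference could not be tested with 1 array per condition. Over all probe sets 3.91% had such a larger ratio in MARCO-/- and 1.91% a smaller one. The split moved with the scaling of the arrays, from 67.2% larger among the called to 54.5% after quantile normalization, 58.0% after cyclic loess and 77.5% after centring, while the 3 probe sets stayed past 2-fold under each of these. They are the s_at probe set of Socs2, at 2.70-fold, Socs1, at 2.50-fold, and the brightest probe set of Socs2, at 2.17-fold. The Socs1 values with PBS were at the background, 5.49 in WT and 4.14 in MARCO-/-. By brightest probe set 2 of the 9 genes passed, both larger in MARCO-/-, beside 581 larger and 433 smaller among all 17097 genes. By the mean of the probe sets of a gene only Socs1 passed. The remaining probe sets of Socs2 went the same way at 1.42-fold and 1.44-fold. Cish went the other way at 1.49-fold. None of the 8 STAT probe sets passed, and their ratios of ratios lay between -0.40 and 0.56 on the log2 scale.

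No member passed 2-fold between the genotypes, either with PBS, where 0.513% of all probe sets were higher and 0.442% lower in MARCO-/-, or with LPS, where 1.86% were higher and 0.990% lower. Each of these values rests on single arrays. With PBS the largest difference was the s_at probe set of Socs2, 1.94-fold lower in MARCO-/-, and the brightest Socs2 probe set was 1.46-fold lower, while the dim probe sets were 1.19-fold and 1.11-fold higher near the background. With LPS 13 of the 15 probe sets had a value above that of WT in MARCO-/- (11 after quantile normalization or cyclic loess), beside 20752 of all 45037. Several of the 15 stand for the same gene, and by brightest probe set 8 of the 9 genes were higher, beside 8293 of 17097. The median log2 ratio of the 15 was 0.50, beside 0.00 over all probe sets. Socs1 had the largest difference, 1.89-fold, then Socs2 at 1.69-fold in its second dimmest probe set. Cish was 1.33-fold lower and 1 of the Stat2 probe sets 1.11-fold lower. Of all called probe sets with LPS, 65.3% were higher in MARCO-/-, against 51.5% after quantile normalization, 53.7% after cyclic loess and 74.9% after centring, and the median of the members became 0.35, 0.42 and 0.58. These 4 comparisons share arrays, so the LPS ratios and the genotype ratios are not independent of each other.

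**Figure D3:**
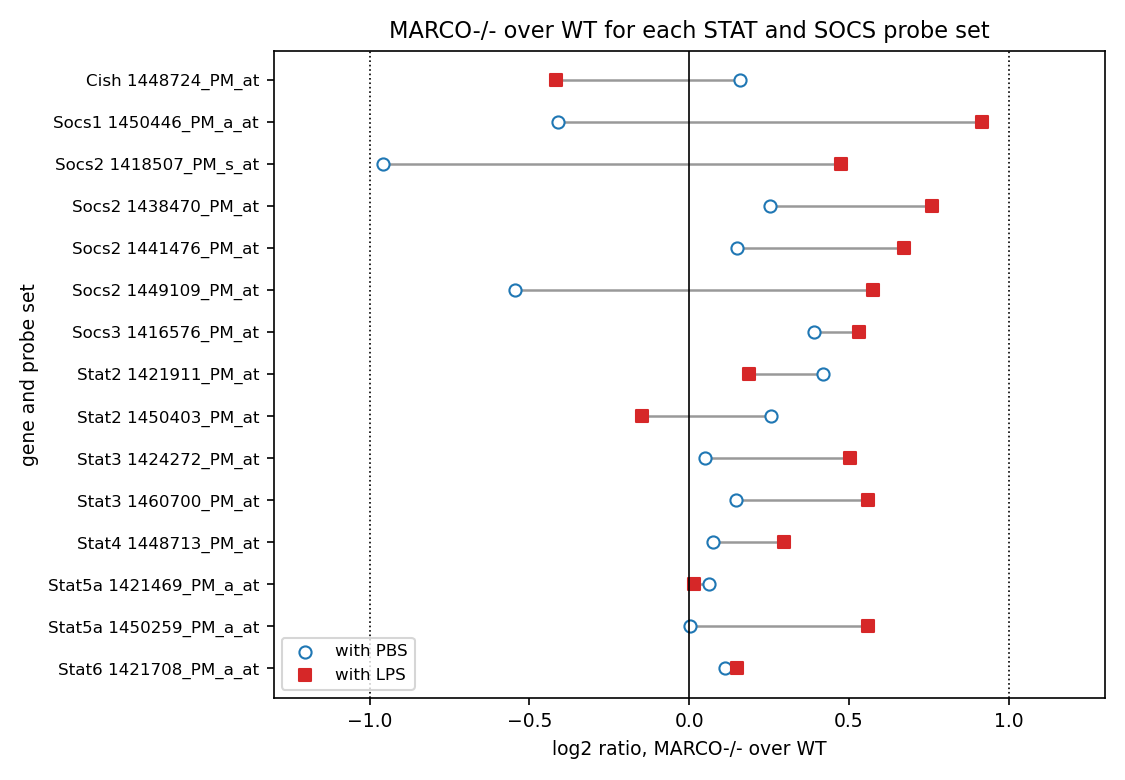
log2 ratio of MARCO-/- over WT for each of the 15 probe sets, with PBS (open circles) and with LPS (squares); each symbol is a ratio of 2 arrays, grey lines join the symbols of a probe set and dotted lines mark 2-fold. No symbol lies beyond 2-fold; Socs1 runs from -0.41 to 0.92 and the s_at probe set of Socs2 from -0.96 to 0.47, while Cish runs from 0.16 to -0.42.

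Genes with the most similar pattern were sought over the 4 arrays for the 7 members that varied by at least 2-fold, among 10955 genes, as the smallest root mean square difference of log2 values after removal of the mean of each gene. For Socs2 the nearest was Il15, a cytokine whose receptor signals through STAT5, at 0.12, with 24.4 (WT PBS), 20.8 (MARCO-/- PBS), 184 (WT LPS) and 264 (MARCO-/- LPS). Pcbp4 and Gstt1 followed at 0.14 and 0.15. For Socs1 they were Uap1, Ptk6 and Dclre1a, at 0.10 to 0.15, and for Cish Sphk1, Ppa1 and Ak6, at 0.03 to 0.07. For Stat4 they were Serpinb9, an inhibitor of granzyme B, Tpbg and Gnb4, at 0.10 to 0.11. Stat3 had Atxn1, H2-T24 and Actn1, Stat2 had Palld, Vwa5a and Fah, and Stat5a had Cttnbp2nl, Myom1 and Rps27l, all within 0.06. With only 4 arrays, such closeness is a description.

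The rest of the pathway was read from 10 lists, 126 genes in all, of which 110 had a probe set of their own and are represented by the brightest. With LPS 24 of the 110 were at least 2-fold higher and 21 lower in WT, and 30 were higher and 14 lower in MARCO-/-. Among all 17097 genes 6.20% were higher and 8.31% lower in WT, and 6.32% and 5.98% in MARCO-/-. The median log2 ratio of the 110 was 0.14 in WT and 0.00 in MARCO-/-, beside 0.05 and 0.00 over all genes.

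Among the ligands, 4 of 22 were higher with LPS in WT and 6 in MARCO-/-. Il6 rose 50.8-fold and 66.6-fold. Il15 rose 7.52-fold and 12.7-fold. Il10, which signals through STAT3 and damps DC, went from 3.39 to 27.6 in WT and from 8.61 to 51.0 in MARCO-/-. Il12a, a chain of IL-12, went from 5.26 to 11.0 and from 4.44 to 17.8, and Csf2, which encodes GM-CSF, passed 2-fold in MARCO-/- (3.60 to 9.82) and not in WT (3.65 to 4.18). Ifng was the only ligand past 2-fold downward, from 43.7 to 16.8 in WT and from 30.1 to 9.42 in MARCO-/-. Of the 22 ligands, 11 never exceeded the median of all intensities, and Ifnb1 reached 4.97 at most.

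Among 30 receptor genes 4 were higher and 7 lower with LPS in WT, and 6 were higher and 4 lower in MARCO-/-. Il2ra, the high-affinity chain of the IL-2 receptor, went from 2.88 to 85.8 in WT and from 3.03 to 92.3 in MARCO-/-, and Il15ra rose 6.87-fold and 7.44-fold. Csf2rb, the signalling chain for GM-CSF, went from 280.1 to 941 in WT and from 292 to 1678 in MARCO-/-, and the related Csf2rb2, which may share sequence with it, rose 3.52-fold and 6.43-fold. Others passed 2-fold downward. Il6ra, the receptor for IL-6, was 6.75-fold lower in WT and 6.74-fold lower in MARCO-/- (in 2 and 1 of its 2 probe sets), and Ifngr1, the binding chain for interferon-gamma, was 5.64-fold and 5.08-fold lower. Il2rb fell 4.16-fold and 2.58-fold (in 1 and 3 of its 3 probe sets), and NK cells, whose summed markers were lower on the same arrays, express it too. The part of NK cells in the Il2rb values was not tested. Lifr went from 118 to 4.14 in WT and from 27.0 to 4.45 in MARCO-/-, although 1 of its 3 probe sets missed 2-fold in WT and 2 in MARCO-/-.

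The kinases moved little. Of Jak1, Jak2, Jak3 and Tyk2, none passed 2-fold with LPS in WT, and in MARCO-/- Tyk2, which serves the receptors of type I interferon and IL-12, rose 2.08-fold, beside 1.79-fold in WT. Of 5 other STAT and SOCS genes measured, Socs5 fell 2.09-fold in WT, in 1 of its 2 probe sets, and none passed in MARCO-/- by its brightest probe set, although 1 other probe set each of Stat5b and Socs6 did. With LPS Socs4 had 54.0 in WT and 101 in MARCO-/-, Socs6 27.8 and 44.8, and Socs7 35.1 and 57.4, all under 2-fold between the genotypes by these probe sets, while 1 of the 3 probe sets of Socs6 passed.

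Of 12 targets of ISGF3, 11 were at least 2-fold higher with LPS in each genotype, with a median log2 ratio of 3.53 in WT and 3.07 in MARCO-/-. The median log2 ratio of MARCO-/- over WT on this list was 0.59 with PBS and 0.51 with LPS. Mx1 went the other way with PBS (-0.43) and Irf9 with LPS (-0.25). A smaller LPS ratio in MARCO-/- is thus not by itself a lower value with LPS. Ifit1 went from 7.43 to 574 in WT and from 21.0 to 683 in MARCO-/-. Oasl1 rose 37.1-fold and 41.7-fold, Oasl2 21.4-fold and 25.3-fold, and Ifit3 17.5-fold and 12.2-fold. Rsad2 rose 14.6-fold (41.9 to 613) and 8.10-fold (98.0 to 794) and Ifit2 11.3-fold and 8.73-fold. Mx2 in WT, at 1.60-fold, and Irf9 in MARCO-/- were the exceptions. Usp18, a target that also blocks the interferon receptor, rose 11.8-fold and 9.94-fold, the highest ratio among 13 other inhibitors of the pathway in both genotypes. Of these inhibitors the phosphatase gene Ptprc (CD45) fell 2.97-fold and 2.27-fold and the ubiquitin ligase gene Cbl 3.03-fold and 2.05-fold. The adaptor gene Sh2b3 was 2.25-fold lower in WT, in 1 of its 2 probe sets, and 1.54-fold lower in MARCO-/-, under the threshold. Pias3 passed 2-fold in MARCO-/-, from 19.6 to 42.6 and in 1 of its 2 probe sets, with 26.2 and 23.8 in WT. The difference between genotypes was not tested for these genes.

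The targets of the other STAT factors were divided. Of 5 STAT5 targets Il2ra and Ccnd2, a D-type cyclin, rose in both genotypes, Ccnd2 by 6.36-fold in WT and 2.80-fold in MARCO-/- and in all 6 of its probe sets, and Bcl2l1 passed 2-fold in MARCO-/- (27.1 to 60.9, with 33.3 and 49.9 in WT, under 2-fold), in 1 of its 4 probe sets. Bcl6, a repressor that STAT5 silences, fell 4.70-fold and 3.27-fold. Pim1, a kinase gene on the STAT3 list as well, fell 2.21-fold in WT. Of 9 STAT3 targets Junb fell 3.01-fold and 2.54-fold, and Nfil3 passed 2-fold upward in MARCO-/- (109 to 381) and not in WT (242 to 299.7). Timp1 rose in WT (4.49 to 22.3) on the array where the sum of the fibroblast markers was highest. Of 6 STAT4 targets 3 fell in both genotypes and none rose. They are Ifng, Il18rap (5.67-fold and 2.19-fold) and Tbx21 (2.24-fold and 4.70-fold), which were lower where Stat4 was higher. NK cells express these genes too. The sum of the NK cell markers fell on the same arrays, although Gzmb among them rose (log2 ratios 1.02 and 0.36). The part of NK cells in these values was not tested. Of 10 STAT6 targets 3 rose and 4 fell in WT, and 2 rose and 3 fell in MARCO-/-: the chemokine genes Ccl22 (6.50-fold and 15.0-fold) and Ccl17 (3.01-fold and 2.28-fold) rose, while the lectin genes Mrc1 (127 to 12.1, and 167 to 2.72) and Mgl2 (19.5 to 3.68, and 5.93 to 2.61) fell. Chil3 fell 2.97-fold and 4.85-fold, Fcer2a, the low-affinity IgE receptor gene, fell 4.11-fold in WT (1.73-fold in MARCO-/-), and Arg1 passed 2-fold upward in WT (3.29 to 8.35, with 3.93 and 3.75 in MARCO-/-). Mrc1 also marks macrophages, whose markers had a median log2 ratio of -2.75 in WT and -3.27 in MARCO-/-.

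**Figure D4:**
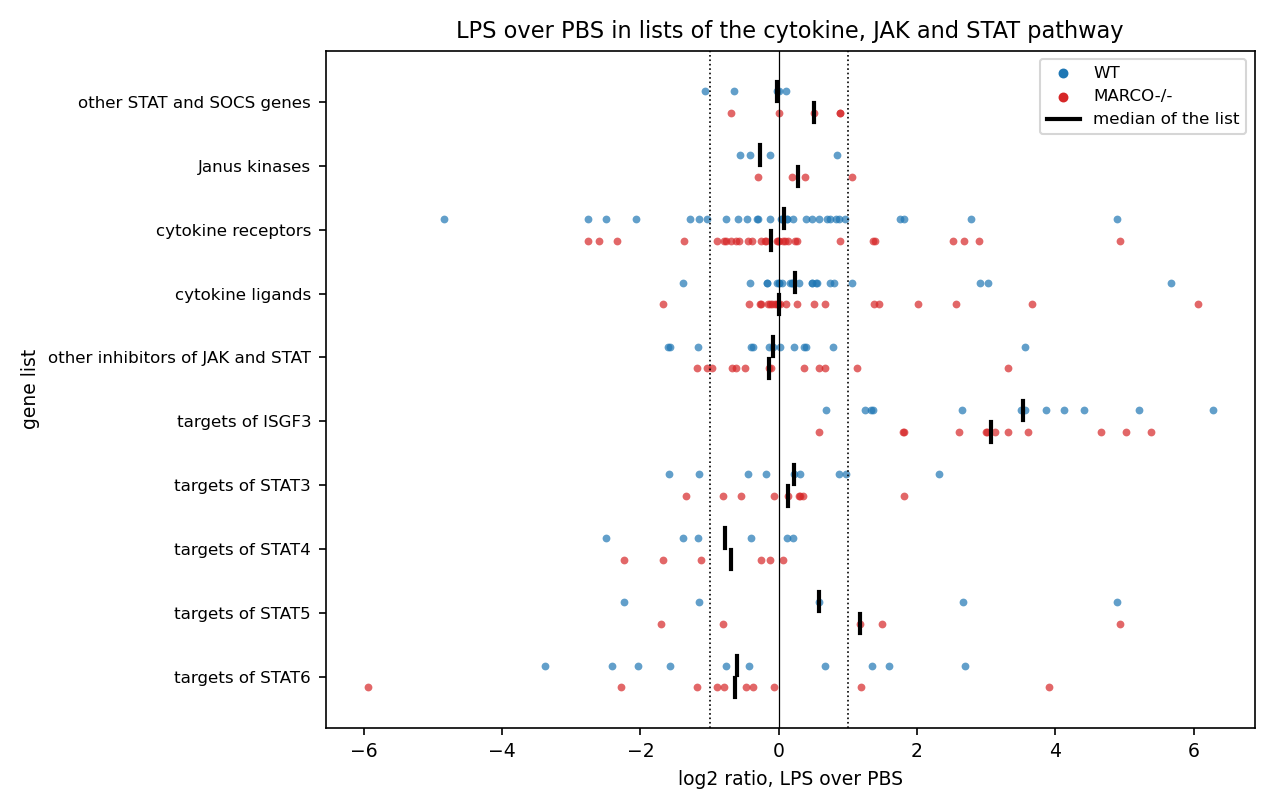
log2 ratio of LPS over PBS for the genes of 10 pathway lists in WT (blue) and MARCO-/- (red); points are genes (brightest probe set), black bars are list medians and dotted lines mark 2-fold. The targets of ISGF3 lie to the right in both genotypes, with medians of 3.53 and 3.07, and the other lists spread to both sides of 0.

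Between the genotypes, 4 of the 110 pathway genes passed 2-fold upward in MARCO-/- with PBS and 5 downward, where 0.760% of all genes were higher and 0.287% lower. With LPS 5 were higher and 5 lower, where 2.09% of all genes were higher and 1.31% lower, and the 5 and 5 became 4 and 6 after quantile normalization and 3 and 6 after cyclic loess. With PBS the higher ones were Il10 (3.39 and 8.61), Ifit1, Rsad2 (in 1 of its 3 probe sets) and Timp1, and the lower ones Lifr, the STAT3 target Nfil3 (242 and 109) and the STAT6 targets Mgl2, Ccl22 and Fcer2a. With LPS the higher ones were Jak3 (3.92 and 8.46, in 1 of its 2 probe sets), Csf2, Mx2, Oas2 and Oasl2. The lower ones were Osmr (5.81 and 2.57, in 1 of its 3 probe sets), Timp1, Arg1 (8.35 and 3.75), Mrc1 and Ccl17. Jak3, Csf2, Osmr, Arg1 and Mrc1 had a value below the median of all intensities in 1 of the genotypes. All 3 STAT6 targets that differed under each condition were thus lower in MARCO-/-, on a list of 10 whose median log2 ratio was -0.77 with PBS and -0.80 with LPS, while Stat6 itself had 0.11 and 0.15. With PBS the list was divided, since Mrc1 (0.40), Chil3 (0.38), Arg1 (0.26) and Alox15 (0.23) were higher in MARCO-/-. On the MARCO-/- LPS array Arg1 (3.75), Retnla (3.52), Alox15 (3.02), Chil3 (2.97), Mrc1 (2.72), Mgl2 (2.61) and Cdh1 (2.59) lay below the median of all intensities, 4.87. With PBS Arg1 (3.29 in WT and 3.93 in MARCO-/-) and Alox15 (3.32 and 3.90) lay below it in both genotypes. Cdh1 (6.03 and 3.62) lay below it in MARCO-/-. These low values limit the ratios and the list medians with PBS and with LPS. When a log2 intensity of at least 8 was asked for, 1 pathway gene was higher with LPS and 0 were lower. Mrc1 was lower in MARCO-/- with LPS, at 12.1 and 2.72, where the 8 macrophage markers were divided. Of these markers 3 were at least 2-fold lower in MARCO-/- with LPS and 2 were higher. The median log2 ratio of the 8 was 0.23. C1qa, C1qb and C1qc had log2 ratios of -2.60, -1.67 and -1.62, and Vcam1 had -0.36. Adgre1 (1.02), Cd5l (0.95) and Spic (0.81) went the other way, as did Timd4, with intensities of 3.70 in WT and 9.14 in MARCO-/-. Fcer2a, which B cells express, was lower with PBS, where the median log2 ratio of 5 B cell markers was -0.28. Vpreb3 had -0.68, Cd79b -0.46, Ms4a1 -0.28 and Cd79a -0.01, while Pax5 went the other way at 0.40. The part of these cells in the STAT6 target values was not tested. Each of these is a difference between 2 arrays.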

How the data were processed

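Expression was measured on 4 Affymetrix arrays of splenic DC, with 1 array per condition. The authors processed the scans with RMAexpress (version not given in the sources used here) and deposited intensities on a linear scale, background-corrected, normalized between arrays and summarized per probe set. The number of arrays limits the precision. Groups came from the labels, and the sources used here do not say which of the DC pools an array stands for. From 45141 probe sets 104 controls were left out. Of the rest, 28898 carry exactly 1 gene symbol in the platform annotation, 551 several and 15588 none listed. Symbols were updated through gene IDs to RefSeq. Each of 17097 genes was represented by its brightest probe set, judged by log2 intensity averaged over the arrays.

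Ratios were differences of log2 intensities with no offset, called at 2-fold in 4 comparisons, and the LPS ratios of the genotypes were divided by each other. No test was possible. Pathway genes were named where 5 or fewer of a list passed, and otherwise the 6 with the largest ratios. Examples beyond that were chosen after their values were seen. Members and lists were chosen with earlier results of these data known. Counts were repeated under 10 other settings (thresholds, scaling, filters on brightness, probe set type, treatment of several probe sets). Steps were checked on simulated data. Python 3.11.15, numpy 2.4.6, pandas 2.3.3, matplotlib 3.10.9, R 4.3.3 and limma 3.58.1 were used.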

Additional observations from a re-analysis of the deposited data

Results flagged for a closer look

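At 3 probe sets the ratio of MARCO-/- over WT had opposite signs with PBS and with LPS, and these ratios differed by at least 2-fold. The difference was not tested, since each condition is 1 array. The s_at probe set of Socs2 had a log2 ratio of -0.96 with PBS and 0.47 with LPS, a difference of 1.43. For the brightest Socs2 probe set the log2 ratios were -0.54 and 0.58, a difference of 1.12. Socs1 had -0.41 and 0.92, a difference of 1.32, with both PBS intensities at the background.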

How the results depend on the processing

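With 1 array per condition no replicate could be left out, and the spread between replicates is unknown. No paired analysis was possible because each group holds 1 array. The 270 single ratios recomputed under other scalings of the arrays, or from the mean of the probe sets of a gene, all stayed within 1.5 times of their value and none of those past 2-fold changed sign. The 12 probe sets called with LPS in each genotype became 4 in both when a log2 intensity of at least 8 was asked for, and 7 in both by gene, with 1 probe set or with their mean, since 9 genes then replace 15 probe sets. Between genotypes the 0 called with PBS and with LPS became 1 and 3 at 1.5-fold. The 3 probe sets whose LPS ratios differed by genotype became 0 at 3-fold, 1 without the x_at, s_at and a_at probe sets and 1 by gene means. Of the pathway genes, the 45 called with LPS in WT and the 44 in MARCO-/- became 20 and 19 with the log2 filter, and the 44 became 29 at 3-fold. The 9 called between genotypes with PBS became 20 at 1.5-fold, 3 at 3-fold and 4 with the log2 filter, and the 10 with LPS became 37, 1 and 1. Values near the background, as for Socs1 with PBS, bound what a ratio can show.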
